A study of Mus musculus with 24 samples.

Results

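The miR-17-92 cluster and its paralogue, the miR-106a-363 cluster, were followed in mouse colon tumours and normal colon mucosa through 8 probes, chosen by miRNA name from the 566 mouse miRNA probes of the panel. The rule goes by name, and it was written with earlier results of these data known. The 8 probes were mmu-miR-106a+mmu-miR-17 and mmu-miR-20a+mmu-miR-20b, which each read a pair of near-identical miRNAs, and mmu-miR-18a, mmu-miR-18b, mmu-miR-19a, mmu-miR-19b, mmu-miR-92a and mmu-miR-363, written below without the species prefix. Mature miRNAs were counted with the NanoString nCounter system, which tags single RNA molecules with barcoded probes and counts them without amplification by PCR.

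The 24 libraries fell into 4 groups. There were 6 libraries of AOM-DSS tumours and 7 of AOM-DSS normal mucosa, from mice given azoxymethane, a carcinogen, and dextran sulphate sodium, which inflames the colon. The APC model gave 5 tumour and 6 normal mucosa libraries, with the genotype label APC; the design text calls these mice APC;CpC, a name used for mice in which Cre recombinase deletes Apc in colon epithelium, and the labels used here give neither the Apc allele nor the promoter behind Cre. Apc restrains Wnt signalling. Strain, age, sex and dosing schedule were not given in the sources used here, nor whether libraries of a group came from separate mice, so the p-values below measure only the spread between these libraries.

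Both clusters are transcribed as long primary transcripts from which Drosha and Dicer cut several hairpins and mature miRNAs. The transcription factor Myc, a target of Wnt signalling in colon epithelium, is known to activate miR-17-92. miRNAs with the miR-17 seed are known to repress Cdkn1a, a brake on the cell cycle; miR-18 is known for targets in the TGF-beta pathway, and miR-92 for the pro-apoptotic gene Bcl2l11.

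In the RefSeq annotation of GRCm38.p6, the miR-17-92 cluster holds 6 hairpins in 836 bp on the plus strand at chr14:115043671-115044506, in the order Mir17, Mir18, Mir19a, Mir20a, Mir19b-1 and Mir92-1. The miR-106a-363 cluster holds 6 hairpins in 875 bp on the minus strand at chrX:52741693-52742567, and read along that strand their order is Mir106a, Mir18b, Mir20b, Mir19b-2, Mir92-2 and Mir363. The mature sequences below, from RefSeq, are printed because they show which probes can be told apart: capitals mark the seed (bases 2 to 8), through which a miRNA finds its targets. The probe names carry no arm, so the arm known as the main product of each hairpin is shown; the panel held 0 probes named for the opposite (star) arm.
miR-17-5p (chromosome 14): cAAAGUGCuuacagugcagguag
miR-106a-5p (chromosome X): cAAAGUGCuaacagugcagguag
miR-20a-5p (chromosome 14): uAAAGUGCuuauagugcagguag
miR-20b-5p (chromosome X): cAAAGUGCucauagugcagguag
miR-18a-5p (chromosome 14): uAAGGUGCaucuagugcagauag
miR-18b-5p (chromosome X): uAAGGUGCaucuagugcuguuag
miR-19a-3p (chromosome 14): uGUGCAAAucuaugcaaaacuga
miR-19b-3p (chromosomes 14 and X): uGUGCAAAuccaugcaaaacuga
miR-92a-3p (chromosomes 14 and X): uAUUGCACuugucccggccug
miR-363-3p (chromosome X): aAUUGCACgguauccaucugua

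The 10 mature sequences carry 4 seeds. With positions counted from 1 at the 5′ end, miR-106a differs from miR-17 by U10A, and miR-20b from miR-20a by U1C and U10C, and the panel reads each of these pairs with 1 probe. Between miR-17 and miR-20a, which have separate probes, the differences are C1U and C12U. The change U11C separates miR-19b from miR-19a, and signal passing between those probes was not tested. miR-18b differs from miR-18a by A18U and A20U. Mature miR-19b and miR-92a come from both clusters, whereas miR-18a and miR-19a are encoded in miR-17-92 alone and miR-18b and miR-363 in miR-106a-363 alone. How well the probes keep these sequences apart was not tested.

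The members fell into a well-detected set and a set at background. Levels are in CPM, each count relative to the library's total of mouse miRNA counts after TMM scaling, and background was set in each library at the mean plus 2 SD of 33 probes for viral miRNAs, which came to between 137 and 251 CPM. The joined miR-106a and miR-17 probe, the joined miR-20a and miR-20b probe, miR-19a and miR-19b exceeded background in all 24 libraries. miR-18a exceeded it in 6 of 6 AOM-DSS tumours, 4 of 7 AOM-DSS normal samples, 5 of 5 APC tumours and 6 of 6 APC normal samples. miR-18b, miR-92a and miR-363 did not exceed it in any library: raw counts of miR-92a lay between 10 and 19 in AOM-DSS tumours, 2 and 21 in AOM-DSS normal mucosa, 11 and 21 in APC tumours, and 11 and 19 in APC normal mucosa. No level of those 3 probes can be read from these data, and a difference in them was not detectable over background. The sources used here do not state whether the miR-92a probe reads the mouse sequence well. Probes bind with unequal efficiency, so the level of one probe is not ranked against that of another below.

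**Figure D1:**
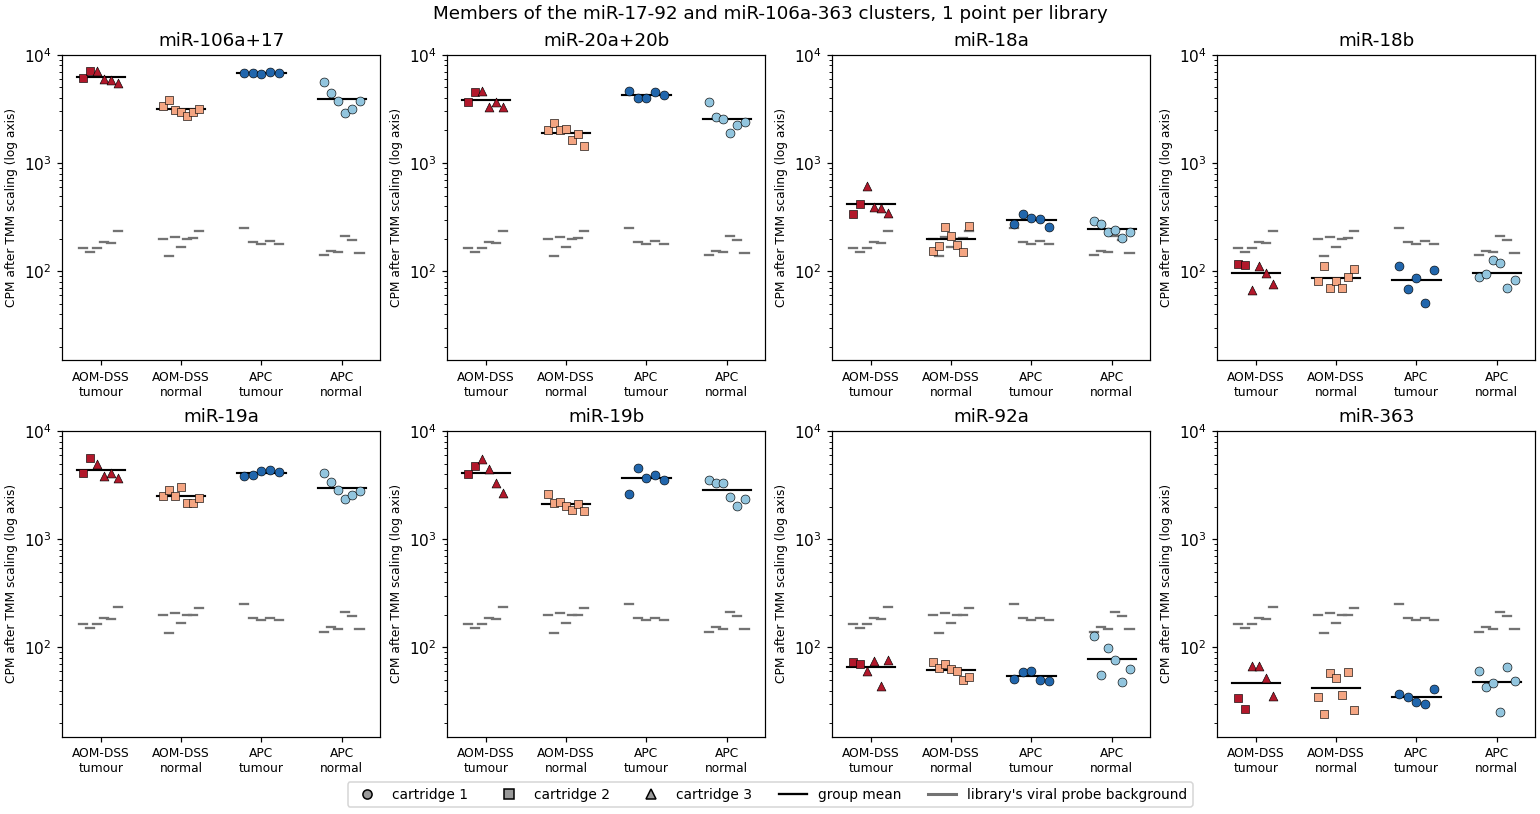
Level of each of the 8 member probes in CPM after TMM scaling (log axis), with 1 point per library, the group mean as a black line and each library's viral probe background as a grey dash; point shapes give the cartridge. For the joined miR-106a and miR-17 probe the 6 AOM-DSS tumours lie between 5549.5 and 7149 CPM, above all 7 AOM-DSS normal samples, while miR-18b, miR-92a and miR-363 lie under the background dash in every library.

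Library totals ranged from 47235 counts (AOM-DSS normal 7) to 329346 counts, with a median of 251264. The next lowest total was 134680 counts (APC tumour 1). By a chi-square test of their counts, APC tumours 1 and 5 stood apart from the other APC tumours: every pair with either of them had between 26.4 and 42.2 per degree of freedom, against 3.85 to 6.85 among APC tumours 2, 3 and 4. AOM-DSS normal mucosa was split too. Libraries 1 and 2 against libraries 3 and 7 had between 25.8 and 35.6, while 1 against 2 had 5.33 and 3 against 7 had 5.50. No fit left out AOM-DSS normal libraries 1 and 2 together, or 3 and 7 together, while APC tumours 1 and 5 were left out together in fits given below. All 11 APC libraries ran on cartridge 1, and the 7 AOM-DSS normal libraries and AOM-DSS tumours 1 and 2 on cartridge 2. AOM-DSS tumours 3 to 6 ran on cartridge 3. In any comparison of the models, model and cartridge therefore cannot be told apart. Cartridge 3 held no normal library, so in AOM-DSS the step from normal to tumour is partly mixed with cartridge as well. All 8 measured epithelial marker miRNAs (such as miR-192, miR-194 and miR-200c) were above background in at least 1 library of each group. The 5 muscle markers (miR-1, miR-133a, miR-133b, miR-143 and miR-145) summed to between 14987 and 48061 CPM in AOM-DSS tumours and between 146764 and 184664 CPM in AOM-DSS normal mucosa, and to between 10379 and 24382 CPM in APC tumours and between 172038 and 340301 CPM in APC normal mucosa. In both models 4 of the 5 fell in tumours, and none had a count of 0 in any library, although miR-1, miR-133a and miR-133b were at background in all APC tumours. Of the 8 epithelial markers 2 were higher and 1 lower in AOM-DSS tumours (summed level 82792 to 105581 CPM in AOM-DSS tumours, 72991 to 109768 CPM in AOM-DSS normal mucosa), and 1 was higher and 5 lower in APC tumours (66303 to 84226 CPM in APC tumours, 97453 to 132938 CPM in APC normal mucosa; median log2 fold change -0.52). Of 7 fibroblast markers 1 was higher and 2 lower in AOM-DSS tumours, and 2 higher and 1 lower in APC tumours; of 8 leukocyte markers 1 was higher in each model, with 1 lower in AOM-DSS tumours and 2 lower in APC tumours. Of 2 endothelium markers 1 was higher in APC tumours, and of 3 erythrocyte markers 1 was lower there. In AOM-DSS tumours none of these passed. These marker levels moved beside the tumour effects below, and their part in those effects was not tested. In such bulk RNA, fewer cells of a type and less of a miRNA per cell cannot be told apart.

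In AOM-DSS tumours all 5 detected members rose, covering the seeds of miR-17, miR-18 and miR-19, and in each of the 5 every tumour lay above every normal sample. Of the 8 probes 5 were higher and 0 lower (edgeR quasi-likelihood test, adjusted over 563 miRNAs), against 8.53% of all miRNAs higher and 8.53% lower. The members' count was also 5 higher and 0 lower within cartridges 1 and 2, where AOM-DSS tumours 1 and 2 remained, and with cartridge 3 as a term. Probes whose tumours all lay above all normal samples made up 3.91% of the miRNAs. The median log2 fold change was 0.87 over the 8 probes and 0.07 over all miRNAs. The members' share of all raw mouse miRNA counts was 2.13% ± 0.12 (SD, n = 6) in AOM-DSS tumours and 0.947% ± 0.130 (n = 7) in AOM-DSS normal mucosa. These shares carry no TMM scaling. With library totals alone the median log2 fold change of all miRNAs was 0.30 in AOM-DSS tumours, so the shares are not a measure of the members' rise by themselves.

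The miR-17 seed probes moved alike. The joined miR-106a and miR-17 probe had a lowest, median and highest level of 5549.5, 6038 and 7149 CPM in AOM-DSS tumours, against 2721, 3113 and 3829 CPM in AOM-DSS normal mucosa. No tumour came near the normal range, and the fold change was 1.99 (log2 0.99 ± 0.13 SE, adjusted p = 9.06e-08). The miR-20a and miR-20b probe read 3289, 3670 and 4614 CPM in AOM-DSS tumours and 1425, 2025 and 2352 CPM in AOM-DSS normal mucosa. It rose 2.00-fold (log2 1.00 ± 0.14, adjusted p = 2.85e-07).

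miR-19a, encoded in miR-17-92 alone, had 3694, 4098 and 5598 CPM as lowest, median and highest level in AOM-DSS tumours and 2156, 2516 and 3050 CPM in AOM-DSS normal mucosa. Its fold change was 1.73 (log2 0.79 ± 0.13, adjusted p = 1.03e-05). For miR-19b, the product of both clusters, the values were 2709, 4243 and 5544 CPM in AOM-DSS tumours and 1848, 2115 and 2653 CPM in AOM-DSS normal mucosa. The lowest tumour and the highest normal sample almost met, yet no tumour fell within the normal range, and the fold change was 1.94 (log2 0.95 ± 0.15, adjusted p = 7.14e-06).

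miR-18a was the detected member nearest to background. Its lowest, median and highest levels were 340.5, 387 and 614 CPM in AOM-DSS tumours and 151, 173 and 264 CPM in AOM-DSS normal mucosa, where 3 of 7 libraries did not exceed their background. It rose 2.19-fold (log2 1.13 ± 0.16, adjusted p = 1.02e-06). The highest tumour, AOM-DSS tumour 3, stood well above the other 5, which lay between 340.5 and 417 CPM. With libraries scaled to 4 mRNA probes instead, the calls of miR-18a, miR-19a and miR-19b were lost (adjusted p = 0.0645, 0.259 and 0.0955), and the median of all miRNAs was then -0.40 on the log2 scale.

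In APC tumours the miR-17 seed probes and miR-19a rose, and neither miR-19b nor miR-18a passed the threshold. Whether these effects differed from those in AOM-DSS tumours was tested separately, as given below. Of the 8 probes 3 were higher and 0 lower, against 9.24% of all miRNAs higher and 12.6% lower. Both miR-17 seed probes had every tumour above every normal sample, as had 4.26% of the miRNAs. The median log2 fold change of the 8 probes was 0.33, and that of all miRNAs 0.04. The members made up 2.47% ± 0.36 of all raw mouse miRNA counts (SD, n = 5) in APC tumours and 1.02% ± 0.20 (n = 6) in APC normal mucosa. These shares too carry no TMM scaling, and with library totals alone the median log2 fold change of all miRNAs was 0.69 in APC tumours. The shares are therefore not compared between the models.

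The joined miR-106a and miR-17 probe read 6803, 6796, 6728, 6910.4 and 6753 CPM in the 5 APC tumours, and 2897, 3718 and 5662 CPM as lowest, median and highest in APC normal mucosa. The tumours agreed closely with one another (SD 70.0 CPM), whereas the normal samples spread widely (SD 1003 CPM). The fold change was 1.73 (log2 0.79 ± 0.14, adjusted p = 2.04e-05). The miR-20a and miR-20b probe had 4672, 4029, 3964, 4516 and 4268 CPM in APC tumours and 1881, 2459 and 3646 CPM in APC normal mucosa. It rose 1.68-fold (log2 0.75 ± 0.15, adjusted p = 0.000118).

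miR-19a read 3816, 3903, 4318, 4375 and 4202 CPM in APC tumours, against 2357, 2827 and 4093 CPM in APC normal mucosa. One normal sample lay within the range of the tumours, and the fold change was 1.37 (log2 0.45 ± 0.14, adjusted p = 0.0143). This call was lost without APC normal 5 (adjusted p = 0.105) and without APC normal 6 (adjusted p = 0.0970), in a fit to the APC libraries alone (adjusted p = 0.102), and with scaling to the mRNA probes (adjusted p = 0.0613). miR-19b read 2601, 4565, 3715, 3970.5 and 3522 CPM in APC tumours and 2039, 2898 and 3511 CPM in APC normal mucosa. Its lowest tumour, APC tumour 1, lay inside the normal range and the other 4 above it, and the log2 fold change was 0.37 ± 0.17 (adjusted p = 0.113). Without APC tumour 1 the adjusted p was 0.0218, and without APC tumours 1 and 5 together the log2 fold change was 0.52 (adjusted p = 0.0173).

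miR-18a had 272, 336, 308, 306 and 258 CPM in APC tumours and 205, 235 and 291 CPM in APC normal mucosa. The groups overlapped, and the log2 fold change of 0.28 ± 0.17 did not pass the threshold (adjusted p = 0.279, 95% interval -0.07 to 0.64). miR-18b, miR-92a and miR-363 had log2 differences of -0.23, -0.47 and -0.46 between background values, none past the threshold. Both miR-18a and miR-19b passed in APC tumours with library totals alone, where their log2 fold changes were 0.94 and 1.02 and the median of all miRNAs was 0.69, and with the authors' scaled values, where they were 0.51 and 0.62 and that median was 0.26.

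**Figure D2:**
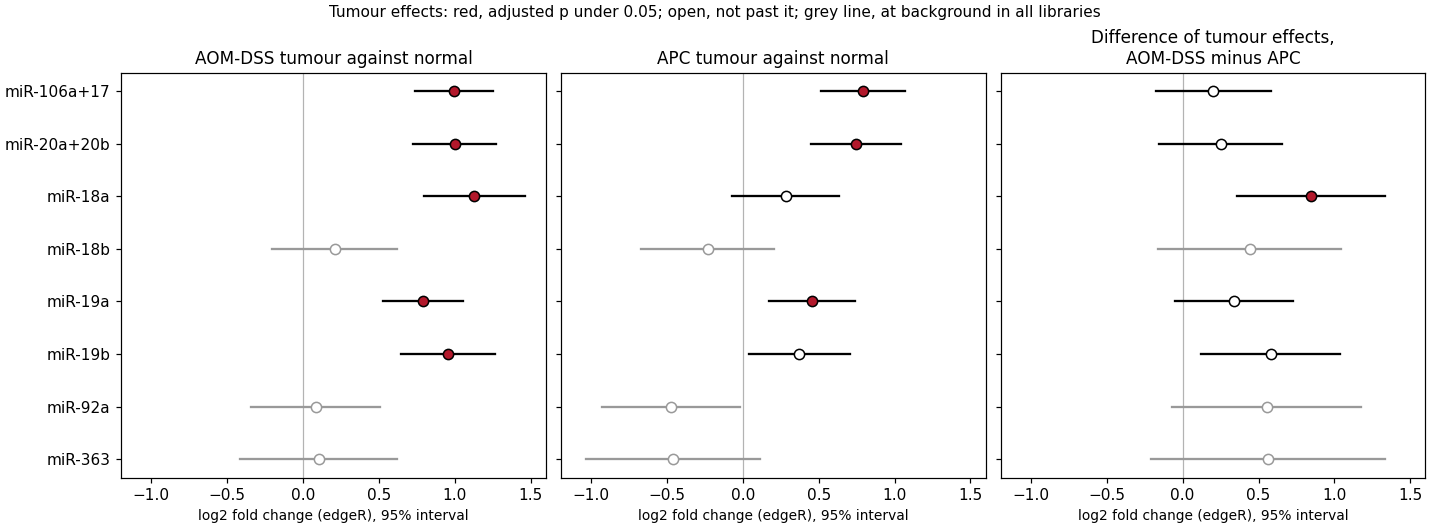
Log2 fold change of each member probe with its 95% interval (edgeR) for AOM-DSS tumours against AOM-DSS normal mucosa, APC tumours against APC normal mucosa, and the difference between them; red points passed an adjusted p of 0.05, open points did not, and grey marks probes at background in all 24 libraries. All 5 detected members are red for AOM-DSS, 3 are red for APC, and in the difference only miR-18a is red, at 0.85.

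The tumour effect of 1 member, miR-18a, differed between the models by the test of the difference itself. The difference, AOM-DSS minus APC, was 0.85 ± 0.24 on the log2 scale (95% interval 0.36 to 1.33, adjusted p = 0.0232), with 3.91% of all miRNAs higher and 2.84% lower. The call was lost without AOM-DSS tumour 3 (0.71, adjusted p = 0.0546), without AOM-DSS normal 5 (0.80, adjusted p = 0.0558), without APC normal 1 (0.75, adjusted p = 0.0675) or without APC normal 2 (0.76, adjusted p = 0.0730), and under library totals alone (0.42, adjusted p = 0.235) or mRNA probe scaling (0.26, adjusted p = 0.658). Restricted to cartridges 1 and 2, it was 0.72 (adjusted p = 0.148). The next in size among detected members was miR-19b at 0.58 ± 0.23 (adjusted p = 0.125). For the other 3 detected members the interval of the difference included 0, from -0.18 to 0.58 for the joined miR-106a and miR-17 probe, from -0.15 to 0.66 for the miR-20a and miR-20b probe, and from -0.05 to 0.73 for miR-19a. These intervals do not show that the models act alike. Marker lists moved in the same difference. Higher were 3 of 8 epithelial markers (median 0.62), 3 of 5 muscle markers (median 0.88) and 1 of 3 erythrocyte markers (median 0.87). Lower were 4 of 7 fibroblast markers (median -0.71) and 1 of 2 endothelium markers (median -0.58). Their part in the miR-18a difference was not tested. Without APC tumours 1 and 5 together, a setting chosen after the data were seen, the miR-18a difference was 0.76 (adjusted p = 0.0435).

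Side by side within tumours, AOM-DSS against APC gave 0 of 8 calls by edgeR, against 4.8% of all miRNAs higher and 3.91% lower, and 1 of 8 had an unadjusted p under 0.05, as had 18.3% of all miRNAs. That 1 was miR-18a, at 415 ± 101 CPM (SD, n = 6) in AOM-DSS tumours and 296 ± 31.1 CPM (n = 5) in APC tumours. Every AOM-DSS tumour lay above every APC tumour for miR-18a, as for 2.66% of all miRNAs, with a log2 difference of 0.47 ± 0.17 (adjusted p = 0.0822). The joined miR-106a and miR-17 probe averaged 6291 ± 671 CPM in AOM-DSS tumours and 6798 ± 70.0 CPM in APC tumours, and the ranges overlapped. In the same comparison 5 of 7 fibroblast markers were lower in AOM-DSS tumours (median -0.55). Higher were 3 of 8 epithelial, 2 of 5 muscle, 2 of 8 leukocyte and 1 of 3 erythrocyte markers. The part of these markers was not tested.

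Within normal mucosa, AOM-DSS against APC likewise gave 0 of 8 calls by edgeR, against 1.6% of all miRNAs higher and 1.78% lower, while 4 of 8 had an unadjusted p under 0.05, as had 15.6% of all miRNAs. Beside this, 4 of 8 epithelial markers were lower (median -0.38) and 2 of 2 endothelium markers higher (median 0.53) in AOM-DSS normal mucosa, and their part was not tested. All 5 detected members had lower means in AOM-DSS normal mucosa (miR-19a was 0.02 higher with the viral mean subtracted), with log2 differences of -0.32 ± 0.13 for the joined miR-106a and miR-17 probe, -0.41 ± 0.14 for the miR-20a and miR-20b probe, -0.37 ± 0.17 for miR-18a, -0.25 ± 0.13 for miR-19a and -0.41 ± 0.15 for miR-19b. Their adjusted p lay between 0.105 and 0.363. With miRNAs near the viral background removed before the fit, 3 of them passed, where 8.85% of the 226 miRNAs kept were lower: the joined miR-106a and miR-17 probe (adjusted p = 0.0438), miR-19b (adjusted p = 0.0329) and the miR-20a and miR-20b probe (adjusted p = 0.0231).

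The order of the 4 group means was therefore not the same for all members. For the miR-17 seed probes it was APC tumours, AOM-DSS tumours, APC normal mucosa and AOM-DSS normal mucosa from high to low. For miR-18a, miR-19a and miR-19b AOM-DSS tumours came first, then APC tumours, APC normal mucosa and AOM-DSS normal mucosa. With mRNA probe scaling AOM-DSS tumours lay below APC tumours for those members too, by -0.03, -0.40 and -0.36 on the log2 scale. Neither the tumour groups nor the normal groups differed past the threshold for any detected member. Between them, APC tumours and APC normal mucosa differed past it for miR-19a but not for miR-18a or miR-19b, and AOM-DSS tumours against APC normal mucosa was not tested.

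Hairpins of 1 primary transcript can yield unequal amounts of mature miRNA, so each member was set against the joined miR-106a and miR-17 probe of its own library. The log2 ratio of the 2 raw counts, with 0.5 added to each, does not depend on how the library was scaled. The 7 other members in both models gave 14 exact two-sided permutation tests, adjusted together. Of these 10 passed, all with a lower ratio in tumours, but 6 of the 10 were the ratios of miR-18b, miR-92a and miR-363, which stay at background while the joined probe rises.

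The miR-20a and miR-20b probe kept step with the joined miR-106a and miR-17 probe. Its log2 ratio averaged -0.71 ± 0.09 in AOM-DSS tumours and -0.73 ± 0.19 in AOM-DSS normal mucosa, and -0.67 ± 0.09 in APC tumours and -0.61 ± 0.09 in APC normal mucosa (SD, n = 6, 7, 5 and 6). Neither difference passed (adjusted p = 0.888 and 0.430, exact permutation test).

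miR-19a rose less than the joined probe in both models. In APC tumours its log2 ratio was -0.83, -0.80, -0.64, -0.66 and -0.68, against -0.47, -0.40, -0.37, -0.30, -0.28 and -0.42 in APC normal mucosa. No tumour reached the normal range, and the difference of -0.35 had the smallest p that 462 arrangements allow (exact permutation p = 0.00216, adjusted p = 0.00758). In AOM-DSS tumours the ratio averaged -0.53 ± 0.10, against -0.32 ± 0.17 in AOM-DSS normal mucosa, a difference of -0.21 (exact permutation, adjusted p = 0.0214). Within cartridge 2 alone, with 2 AOM-DSS tumours and 7 normal samples, that difference was -0.14 and did not pass (adjusted p = 0.583). So few arrangements exist there that 1 ratio alone could not have passed after adjustment, so this setting does not decide.

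The ratios of miR-18a and miR-19b were lower in APC tumours, and no such difference passed in AOM-DSS tumours. For miR-18a the ratio averaged -4.52 ± 0.15 in APC tumours and -3.97 ± 0.22 in APC normal mucosa, a difference of -0.55 (exact permutation, adjusted p = 0.0101). All 5 APC tumours, between -4.70 and -4.33, lay under the lowest APC normal sample at -4.27. With the viral mean subtracted from each count, the difference was -0.48 (exact permutation, adjusted p = 0.0130). For miR-19b the ratio averaged -0.91 ± 0.30 in APC tumours and -0.46 ± 0.23 in APC normal mucosa (difference -0.45, exact permutation, adjusted p = 0.0253), and APC tumour 1 was lowest at -1.39. Without APC tumour 1 the difference was -0.33 (exact permutation, adjusted p = 0.0600), and the call was also lost without APC tumour 5 (adjusted p = 0.0533) and without both (-0.28, adjusted p = 0.15). The APC ratios of miR-18a and miR-19a were -0.46 and -0.33 without both (adjusted p = 0.0214 each). In AOM-DSS the tumour minus normal differences were 0.08 for miR-18a (adjusted p = 0.725, or 0.75 and adjusted p = 0.0579 with the viral mean subtracted) and -0.06 for miR-19b (adjusted p = 0.686).

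Set between the models, a comparison chosen after the values were seen, the same ratios gave 14 further exact permutation tests. Within tumours, the miR-18a ratio was higher in AOM-DSS than in APC by 0.58 (every AOM-DSS tumour above every APC tumour, adjusted p = 0.0303). The miR-19a ratio was higher by 0.19 (adjusted p = 0.0303). Its groups did not overlap but almost met, with the lowest AOM-DSS tumour at -0.634 and the highest APC tumour at -0.640. For miR-19b the difference was 0.27 and did not pass (adjusted p = 0.386). The tumour minus normal differences of the ratios were not tested against each other between the models. With the viral mean subtracted the differences within tumours were 0.80 for miR-18a and 0.20 for miR-19a (both adjusted p = 0.0152), but the 3 probes at background passed in that setting too (miR-18b at 1.53, adjusted p = 0.0424; miR-92a and miR-363 at 0.53 each, adjusted p = 0.0152). Within normal mucosa none of the 7 ratios passed (adjusted p between 0.386 and 0.788).

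**Figure D3:**
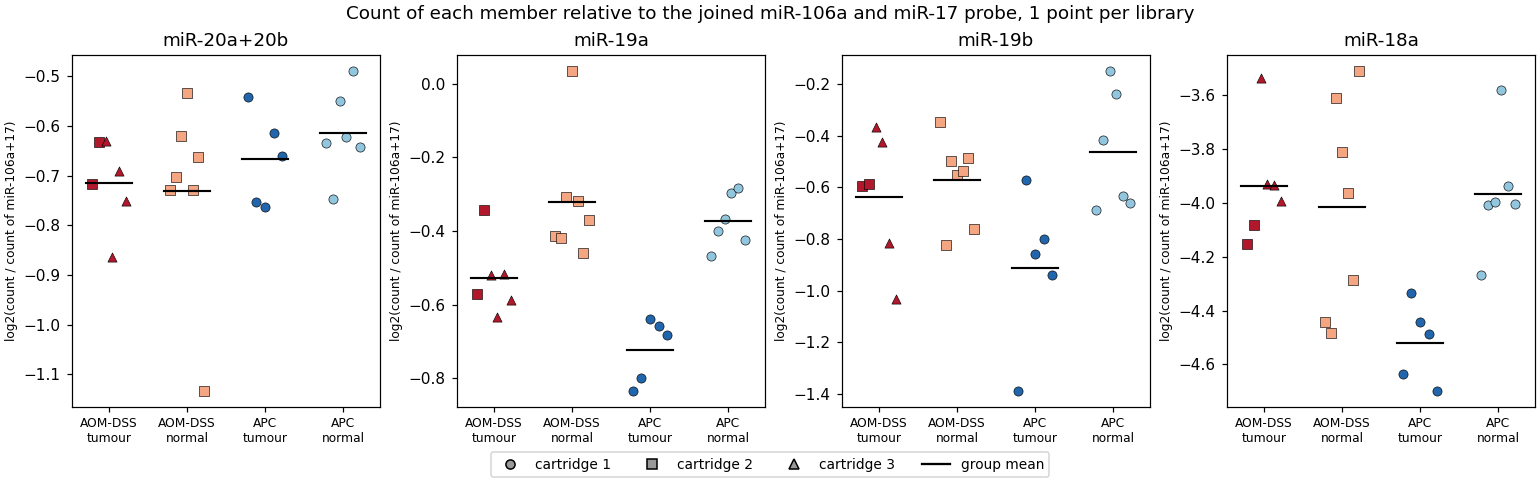
Log2 of the count of miR-20a and miR-20b, miR-19a, miR-19b and miR-18a over the count of the joined miR-106a and miR-17 probe in the same library, with 1 point per library, the group mean as a line and the cartridge as point shape; each panel has its own axis. The APC tumours lie under every APC normal sample for miR-19a (-0.83 to -0.64 against -0.47 to -0.28), and the miR-20a and miR-20b ratio has overlapping groups in both models.

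Other miRNAs of the panel share the members' seeds. Of the 558 other mouse probes, 431 matched a mature RefSeq sequence by name, and 6 of these carried a member's seed: miR-106b and miR-93 that of miR-17, and miR-25, miR-32, miR-92b and miR-367 that of miR-92a. miR-32, miR-92b and miR-367 were at background in all 24 libraries. The remaining 3 form the miR-106b-25 cluster, a further paralogue, at chr5:138165321-138165818 on the minus strand of GRCm38.p6. Their sequences are shown for comparison with miR-17 and miR-92a.
miR-106b-5p: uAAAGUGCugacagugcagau
miR-93-5p: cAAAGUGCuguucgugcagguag
miR-25-3p: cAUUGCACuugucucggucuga

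All 3 probes of the miR-106b-25 cluster rose in AOM-DSS tumours, by log2 0.59 ± 0.15 for miR-106b (adjusted p = 0.00403), 0.99 ± 0.12 for miR-93 (adjusted p = 7.27e-08) and 1.09 ± 0.12 for miR-25 (adjusted p = 4.47e-09). In APC tumours miR-93 rose by 0.63 ± 0.13 (adjusted p = 0.000288) and miR-25 by 0.73 ± 0.13 (adjusted p = 2.40e-05), and miR-106b had 0.42 ± 0.17 (adjusted p = 0.0630). None of the 3 tumour effects differed between the models past the threshold. Over the 21 bases of miR-92a, miR-25 differs from it by U1C, C14U and C18U. miR-25 averaged 4054 ± 499 CPM in AOM-DSS tumours, 1898 ± 119 CPM in AOM-DSS normal mucosa, 3846 ± 254 CPM in APC tumours and 2313 ± 426 CPM in APC normal mucosa, while the miR-92a probe stayed at background in the same libraries.

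**Figure D4:**
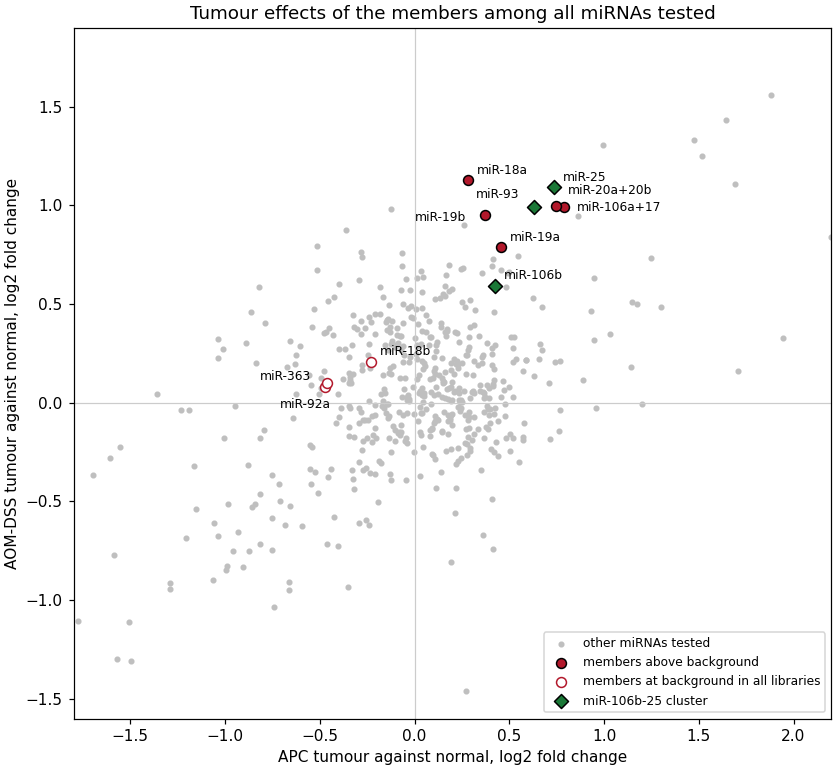
Log2 fold change in APC tumours against APC normal mucosa (x axis) and in AOM-DSS tumours against AOM-DSS normal mucosa (y axis) for the 563 miRNAs tested (grey), with detected members in red, members at background as open circles and the miR-106b-25 cluster as green diamonds; 11 miRNAs lie outside the axes. The 5 detected members sit between 0.79 and 1.13 on the y axis but spread from 0.28 (miR-18a) to 0.79 (joined miR-106a and miR-17 probe) on the x axis.

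By the Pearson correlation of log2 CPM with the mean of the 8 members over the 24 libraries, the closest of 177 probes above background in at least 12 libraries were miR-200c (0.912), miR-25 (0.911), miR-93 (0.886), miR-27b (0.838) and miR-191 (0.814). The libraries share their groups and cartridges, so differences between group means enter these values. Correlated as deviations from the group means, the same probes had 0.726, 0.787, 0.629, 0.516 and 0.552, which placed them at ranks 5, 2, 11, 26 and 19 of the 177. Against the mean of the 5 detected members alone, chosen after the data were seen, they stayed the closest 5, now led by miR-25 (0.956) and miR-93 (0.952), with miR-200c at 0.922. miR-200c is an epithelial miRNA that represses Zeb factors.

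Among 28 miRNAs reported to be lowered by Myc, such as the let-7, miR-29 and miR-30 families, 0 were higher and 9 lower in AOM-DSS tumours, with 8.53% of all miRNAs called in each direction. Their median log2 fold change was -0.17, that of all miRNAs 0.07. The 4 with the smallest p were miR-30a (-0.84 ± 0.13, adjusted p = 4.05e-06), miR-195 (-0.93 ± 0.18, adjusted p = 0.000168), miR-22 (-0.58 ± 0.12, adjusted p = 0.000297) and miR-23a (-0.52 ± 0.11, adjusted p = 0.000387). In APC tumours 3 were higher and 9 lower, with 9.24% of all miRNAs higher and 12.6% lower, and the medians were -0.26 for the list and 0.04 for all. miR-29c fell most clearly (-1.15 ± 0.14, adjusted p = 8.72e-09), followed by miR-30a (-0.995 ± 0.143, adjusted p = 5.96e-07), miR-30e (-0.98 ± 0.17, adjusted p = 2.40e-05) and miR-23a (-0.66 ± 0.12, adjusted p = 3.14e-05). The 3 higher ones, named after their values were seen, were miR-34a (1.18 ± 0.22, adjusted p = 5.43e-05), let-7e (0.48 ± 0.13, adjusted p = 0.00566) and let-7i (0.41 ± 0.13, adjusted p = 0.0159). The muscle markers moved in the same comparisons, as given above, and Myc itself was not measured.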

How the data were processed

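Raw counts per probe, deposited by the authors without normalization, were used for all 24 libraries (566 mouse miRNA probes, 33 viral probes, and 4 probes for the mRNAs of Actb, B2m, Gapdh and Rpl19). Columns of other series numbered 0. Per the file headers, libraries ran on 3 cartridges. The deposited scaled signal is each library's count times 1 factor, with 33 zeros set to 1; all 14376 values matched a raw column within 0.01, which gave the library numbers. No source used here gives the factor's basis, the software or a background step. Per the labels' protocols RNA came from formalin-fixed, paraffin-embedded tissue, but the design text says frozen; this was not settled.

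Counts were fitted in R 4.3.3 with edgeR 4.0.16 (filterByExpr, min.count 10, min.total.count 15, keeping 563 miRNAs and removing 3; TMM; 1 robust quasi-likelihood model over 4 groups), with Benjamini-Hochberg adjustment per comparison and a threshold of 0.05. The standard error is the absolute log2 fold change over the square root of F. limma 3.58.1 and DESeq2 1.42.0 served as alternatives. The main fit was also run on counts simulated with spreads estimated from these data and the same changes in both tumour groups. Such a run checks the code, and not the choice of scaling or the cartridge layout. Ratios used exact permutation tests. Replicates differed beyond sampling noise (chi-square per degree of freedom 3.30 to 42.2). Named miRNAs were the members, the miR-106b-25 cluster, probes sharing a member's seed, the 5 most correlated probes, the 4 smallest p of a Myc list in each tumour comparison, and cell type markers. Members, lists, marker sets and tests were chosen with earlier results of these data known.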

Additional observations from a re-analysis of the deposited data

Results flagged for a closer look

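miR-18a stood out in a single library: it had 614 CPM in AOM-DSS tumour 3, while the other 5 AOM-DSS tumours lay between 340.5 and 417 CPM. Its gap to the next tumour was 0.719 of the whole range of the group, over Dixon's 95% critical value for 6 samples. By that value's definition chance passes it in about 1 in 20 sets, and 32 sets of values (8 probes in 4 groups) were checked.

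The tumour effect of miR-18a differed between the groups of mice, by 0.85 (log2, AOM-DSS minus APC; edgeR, adjusted p = 0.0232). Without AOM-DSS tumour 3 the difference was 0.71 (adjusted p = 0.0546).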

How the results depend on the processing

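Most member results kept their direction and their side of the threshold over the alternatives run; the exceptions follow, with the cause not tested unless stated. The 3 members at background were not followed singly. Scaled to the mRNA probes, which moved the median of all miRNAs to -0.40 in AOM-DSS, 2 members rather than 5 were higher in AOM-DSS tumours. In APC tumours 5 members rather than 3 were higher with library totals alone (median of all miRNAs 0.69), with the filter at viral background and with the authors' scaled values, where miR-19b and miR-18a also passed (miR-19b did so too when scaled to the 100 highest miRNAs and with the viral mean subtracted); leaving out 1 replicate gave 2 to 4, and without APC normal 5 the 3 calls were 2 higher and 1 lower, miR-92a (-0.65, adjusted p = 0.0349), whose values lie at background. Without APC tumours 1 and 5 together, also chosen after seeing the data, 4 were higher. The call on the difference between the models went to 0 with library totals alone, mRNA probe scaling, the viral mean subtracted (0.81, adjusted p = 0.279), the authors' scaled values (0.63, adjusted p = 0.118), within cartridges 1 and 2 and with cartridge 3 as a term (0.72, adjusted p = 0.143), and leaving out 1 replicate gave 0 to 1. AOM-DSS against APC gave 2 lower members in tumours with mRNA probe scaling (joined miR-106a and miR-17 probe -0.59, miR-20a and miR-20b probe -0.62), and 3 lower in normal mucosa with the filter at viral background. Differences between the models that had not passed changed sign; for the difference of tumour effects the median of all miRNAs was then -0.35 with library totals alone and -0.46 with mRNA probe scaling. For the difference of tumour effects, library totals alone gave -0.24 for the joined miR-106a and miR-17 probe, -0.10 for miR-19a and -0.21 for the miR-20a and miR-20b probe; mRNA probe scaling gave -0.40, -0.27 and -0.32 for these and -0.069 for miR-19b; and with the viral mean subtracted the 4 values were -0.43, -0.29, -0.37 and -0.052. Within tumours miR-19a became -0.12, -0.40 and -0.27, and miR-19b -0.028, -0.36 and -0.19, under the same 3 settings; miR-19a became -0.010 with the filter at viral background, and miR-18a -0.025 with mRNA probe scaling. Within normal mucosa miR-19a became 0.019 with the viral mean subtracted. Of the AOM-DSS ratios, leaving out 1 replicate gave -0.00233 to 0.16 for miR-18a, -0.051 to 0.049 for the miR-20a and miR-20b probe and -0.12 to 0.015 for miR-19b; within cartridge 2 the miR-18a ratio was -0.10, and without AOM-DSS normal 7 and APC tumour 1 together (also chosen after seeing the data) the miR-20a and miR-20b ratio was -0.051. Same-numbered tumour and normal samples did not deviate alike from their group means (correlations -0.38 to 0.22, and only AOM-DSS 6 matched its own number best). Tumour and mucosa of 1 mouse need not deviate alike, so this cannot decide whether the numbers pair the samples. With the replicate number as a block, 5 members were higher in AOM-DSS tumours, 2 in APC tumours (miR-19a had adjusted p = 0.0546 by edgeR) and 1 in the difference. The miR-20a and miR-20b ratio in AOM-DSS was then -0.051, and 0 ratios rather than 10 passed. By construction an exact test cannot go below p = 0.0625 with the 5 APC pairs or p = 0.03125 with the 6 AOM-DSS pairs. After adjustment over the 14 ratios none of either model could have passed, so this setting cannot decide on the ratios. Within cartridge 2, 0 of 7 ratios passed with 2 tumours left, too few for 1 ratio alone to pass after adjustment. Leaving out 1 replicate gave 9 to 10 ratios. miR-18b, miR-92a and miR-363 did not exceed background in any library, and the reason was not tested.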

Other observations

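The miR-92a probe read between 2 and 21 raw counts per library, although Mir92-1 is the last hairpin of the miR-17-92 cluster and the probes of the other hairpins of that cluster exceeded background. All 5 other probes that read miR-17-92 did so in every AOM-DSS tumour and every APC tumour. How well this probe reads mouse miR-92a was not stated in the sources, so its counts give no level of miR-92a. The miR-363 probe of the paralogue cluster read between 1 and 19 raw counts, and the miR-18b probe between 4 and 30.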
